A study of Mus musculus with 2 samples.

Results

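The genes described here encode the neuronal cytoskeleton and the machinery of synaptic vesicles. They are a list of 45 genes, chosen by symbol with earlier results of these data known. Of these, 43 were among the 12393 genes read by a probe set (a group of oligonucleotides for 1 transcript) naming a single gene. *Sv2b* and *Rims1* were not analysed here. Where a gene had several probe sets, values are from the one with the highest mean level unless another is mentioned. The data are processed log2 levels from 2 Affymetrix MOE430A arrays of cochlear RNA from C57BL/6J mouse embryos at E18.5, dissected with the otic capsule and without vestibular tissue. The study compared embryos with the targeted *Igf1* gene disrupted in both copies, *Igf1*-/-, with wild type embryos, *Igf1*+/+, from crosses of heterozygotes, to ask which cochlear genes depend on insulin-like growth factor I. The disruption is present in all cells of the null embryo and not limited to the ear. The labels give 8 cochleae per array, while the study's methods give pools from 2 embryos, so that no column stands for a single animal.

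The genotype of each array is not settled by its labels. One array has +/+ in its title, but its source name and its description give the null genotype. The other has −/− in its title and the wild type in those fields. They are called here the plus-titled and the minus-titled array. A difference is the log2 level on the minus-titled array less that on the plus-titled one, after subtraction of 0.022, the median over all probe sets. By the titles a positive difference is a higher level in the null, and by the source names a higher level in the wild type. *Igf1* itself was at a high level on both arrays by all of its 3 probe sets, with differences of −0.42, −0.75 and −0.58, and whether these lie in the disrupted stretch is not given in the labels or methods. There is 1 column of values per title, so no test was made, and the small number of arrays sets the precision. The study's methods describe 3 RNA pools per genotype, and it is unstated if each column is a single array or combines those of several pools. Only the probe sets of the same gene repeat a measurement, and their differences had a pooled SD of 0.11 where the mean level was above 7.10, the median of all genes, of 0.30 between 5 and this median, and of 1.18 below 5. These ranges are called high, middle and low level below. Of the 43 genes, 30 were at a high level, 3 were below 5 and none was listed at 0. The 3′ signal of *Gapdh* over its 5′ signal, a sign of RNA integrity, was 0.27 on the log2 scale on the plus-titled and 0.36 on the minus-titled array. The mean level of the 18S rRNA controls was 6.57 and 7.37, higher on the minus-titled array like most of the neuronal genes, and the part of RNA quality in the results was not tested.

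Neurons carry their signals to other cells through synapses. Vesicles filled with transmitter wait at the presynaptic membrane, where SNARE proteins on vesicle and membrane zip together and calcium sensors trigger their fusion, and the vesicle membrane is then taken back by endocytosis. The axon that leads there is supported by neurofilaments and microtubules, along which kinesin motors carry vesicle precursors. In the cochlea the cell bodies of the auditory neurons lie in the spiral ganglion. Their peripheral processes reach the hair cells and their central axons run to the brainstem. Presynaptic transcripts in a dissected cochlea can thus come from spiral ganglion neurons, from hair cells and from other nerve tissue taken with it.

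Promoter sequences from RefSeq were available for 36 of the 45 genes, each window running from 250 bases before the start site to 50 after it. The windows below, printed to 25 bases after the start, are shown because these genes differed in both directions while sharing letters of neuronal control elements. Capitals mark the cyclic AMP response element, searched as TGACGTCA, and pieces of RE1, the element bound by the repressor REST in many neuronal genes, searched as TTCAGCACC and GGACAGC. All were searched on both strands, and these motifs do not overlap one another.
Syn1 promoter (GRCm38.p6, chrX:20920894-20921168, minus strand): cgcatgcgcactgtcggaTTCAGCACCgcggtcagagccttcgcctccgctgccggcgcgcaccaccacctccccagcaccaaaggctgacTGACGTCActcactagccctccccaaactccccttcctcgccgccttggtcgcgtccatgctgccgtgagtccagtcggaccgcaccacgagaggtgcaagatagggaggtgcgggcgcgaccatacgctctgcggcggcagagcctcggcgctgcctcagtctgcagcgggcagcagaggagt
Chgb promoter (GRCm38.p6, chr2:132781392-132781666, plus strand): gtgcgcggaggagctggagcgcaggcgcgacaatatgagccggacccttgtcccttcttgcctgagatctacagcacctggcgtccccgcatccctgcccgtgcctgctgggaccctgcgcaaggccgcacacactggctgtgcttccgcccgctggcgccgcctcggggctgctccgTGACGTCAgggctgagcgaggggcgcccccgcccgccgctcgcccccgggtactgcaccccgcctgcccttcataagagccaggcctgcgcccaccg
Scg2 promoter (GRCm38.p6, chr1:79440002-79440276, minus strand): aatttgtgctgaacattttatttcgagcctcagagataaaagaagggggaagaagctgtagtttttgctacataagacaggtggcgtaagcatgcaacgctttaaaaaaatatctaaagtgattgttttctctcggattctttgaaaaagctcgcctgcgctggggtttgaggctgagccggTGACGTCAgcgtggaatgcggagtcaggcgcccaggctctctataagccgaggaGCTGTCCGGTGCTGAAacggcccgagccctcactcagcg
Tubb3 promoter (GRCm38.p6, chr8:123411303-123411577, plus strand): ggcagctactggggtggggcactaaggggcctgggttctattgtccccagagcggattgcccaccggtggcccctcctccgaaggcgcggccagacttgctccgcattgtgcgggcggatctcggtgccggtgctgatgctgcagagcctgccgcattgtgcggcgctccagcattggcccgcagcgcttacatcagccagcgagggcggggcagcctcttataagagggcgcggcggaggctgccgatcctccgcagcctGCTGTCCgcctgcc

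TGACGTCA was found in the windows of 5 of the 36 genes, *Syn1*, *Chgb*, *Scg2*, *Kif5c* and *Kif17*, against 2.03% of all 27025 genes with a window. TTCAGCACC was found in 2, *Syn1* and *Scg2*, against 0.433%, and GGACAGC in 3, *Scg2*, *Map2* and *Tubb3*, against 7.59%. In *Scg2* both RE1 pieces lie next to each other at the start site, on the reverse strand, beginning 14 bases before the start. The GC box GGGCGG was found in 24 of the 36, against 38.2%, and TATAAA in 7, against 15.7%. The genes with TGACGTCA did not share a direction. The differences of *Chgb* and *Syn1* were 0.68 and 0.71, those of *Kif5c* and *Kif17* 0.14 and 0.056, and that of *Scg2* −0.41. Nor did the pair with TTCAGCACC, and a match is a run of letters, not a shown binding site.

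Most of the neuronal genes were higher on the minus-titled array, by small amounts. Of the 43 genes, 32 were higher there and 11 lower, while 50.5% of all measured genes were higher. The median difference was 0.25, and over all measured genes it was 0.0028. In bulk tissue such as this, a different share of neurons and a different amount of RNA per neuron cannot be told apart. *Gad1* alone was above 1 log2 unit, where 5.54% of all genes lay, and none was below −1, where 4.07% lay. Among the 30 genes of high level, 25 were higher against 49.1% of all genes of high level. At middle levels 6 of 10 were higher against 54%, and at low levels 1 of 3 against 50.3%. Of the 30 of high level, 17 were above 0.25, a limit passed by 6.78% of all genes of high level, and 1, *Scg2*, was below −0.25, as were 5.28% of them. Above 0.5 lay 5 of the 30, *Elavl3*, *Syn1*, *Chgb*, *Tubb3* and *Ina*, against 1.9%, and below −0.5 lay none, against 0.646%.

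**Figure D1:**
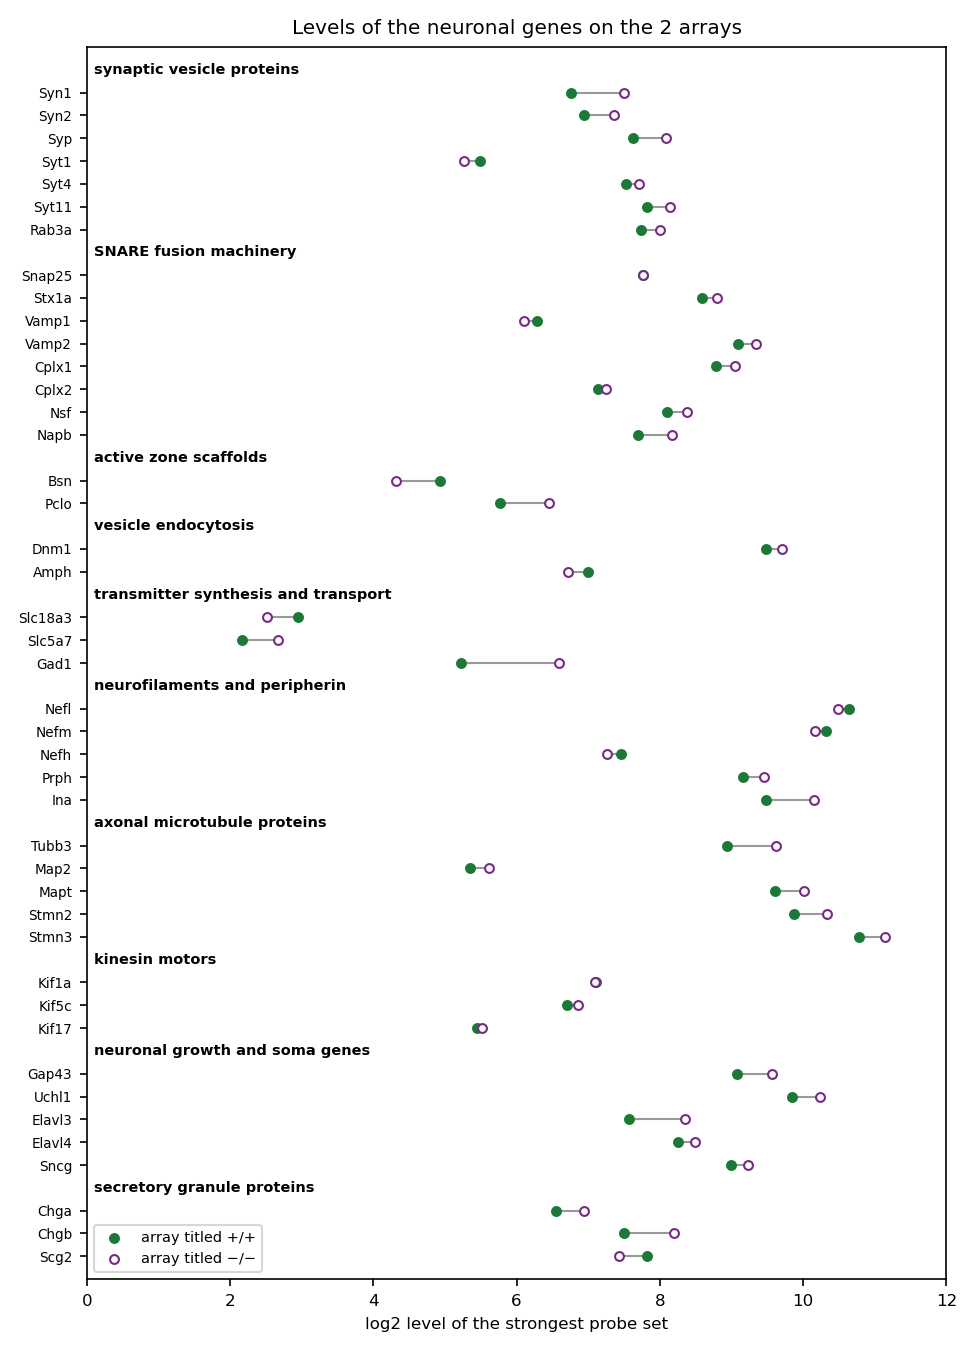
Log2 level of the strongest probe set of each of the 43 genes on the plus-titled array (filled green) and the minus-titled array (open purple), joined by a line and grouped by role, with 1 value per array. The open circle lies to the right for 32 genes, and the longest line is that of *Gad1*, from 5.23 to 6.59.

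**Figure D2:**
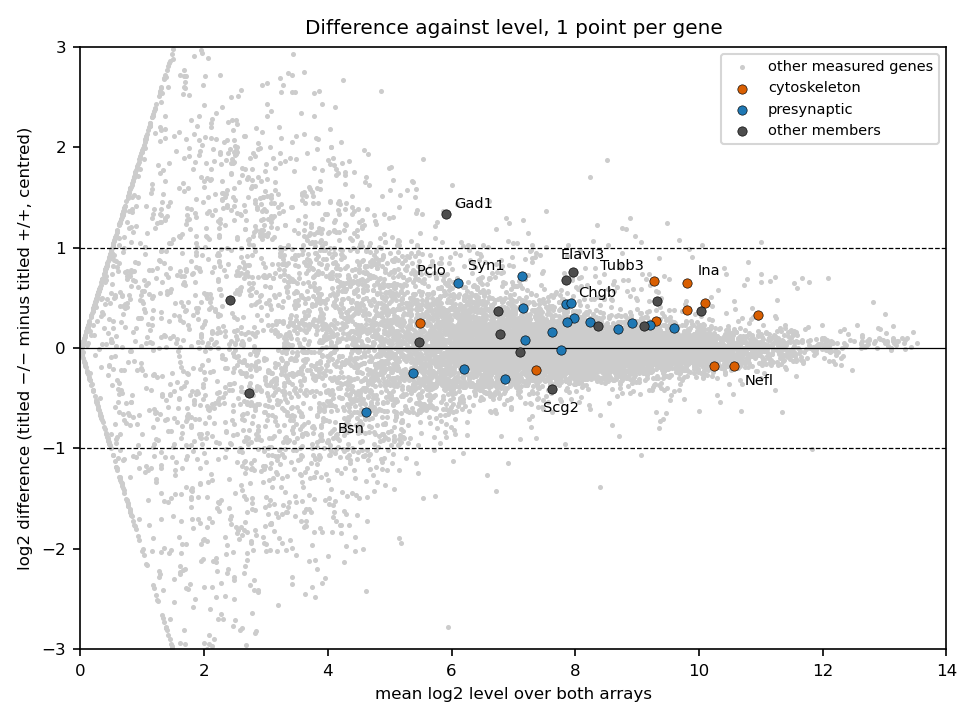
Centred log2 difference (titled −/− minus titled +/+) against the mean log2 level, with 1 point per measured gene in grey and the 43 neuronal genes in colour (orange, cytoskeleton; blue, presynaptic; dark grey, others). Dashed lines mark 1 and −1, 58 genes beyond 3 in either direction are not drawn, and the neuronal genes of high level lie mostly above 0, with *Scg2* at −0.41 and *Nefl* at −0.18 among the exceptions.

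The proteins of the vesicle itself were higher on the minus-titled array for 6 of 7 measured genes, with a median of 0.30. Synapsins tether vesicles to the actin cytoskeleton. *Syn1* was at 6.77 on the plus-titled array and 7.50 on the minus-titled array, a difference of 0.71, and 0.872% of all genes of high level had a difference as far or farther in this direction. *Syn2* was at 6.94 and 7.36, a difference of 0.40, and its weaker probe set, at 4.72 and 5.99, differed by 1.25. Synaptophysin, *Syp*, is an abundant membrane protein of small vesicles and was at 7.62 and 8.09, a difference of 0.44. Its other probe set, of the type that can read related transcripts (_x_at), was at 3.65 and 0.70 and gave −2.97, so the direction of *Syp* rests on the stronger one.

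The synaptotagmins were mixed. *Syt1*, the calcium sensor of fast release, was at 5.49 and 5.26, a difference of −0.25 at a middle level where the SD between probe sets was 0.30, and its weaker probe set gave 0.25. *Syt11*, a family member that does not sense calcium, was at 7.82 and 8.14, and its 3 probe sets differed by 0.30, 0.28 and 0.19. *Syt4*, which is found on dense-core as well as synaptic vesicles, was at 7.53 and 7.71, a difference of 0.16, but its next probe set of high level gave −0.040. *Rab3a*, the small GTPase of vesicle docking, was at 7.73 and 8.01, a difference of 0.25.

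Of the 8 genes of the SNARE fusion machinery, 6 were higher on the minus-titled array, with a median of 0.21, and 6 of the 8 were within 0.25 of 0. The vesicle SNARE *Vamp2* was at 9.09 and 9.34, a difference of 0.23, and its second probe set, at 5.90 and 6.42, differed by 0.50. Its close relative *Vamp1* was at 6.29 and 6.10, a difference of −0.20, and its second probe set gave −0.64 at a low level. The membrane SNAREs gave no difference or an uneven one. *Snap25* was at 7.77 on both arrays, a difference of −0.024. *Stx1a* was at 8.59 and 8.80 by an _x_at probe set, a difference of 0.19, and its other probe set, also of high level, was at 7.69 and 7.67 and differed by −0.033.

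Complexins clamp the assembled SNAREs until calcium arrives. *Cplx1* was at 8.79 and 9.06, and its 3 probe sets differed by 0.25, 0.13 and 0.049, in the order of their level. *Cplx2* was at 7.14 and 7.24, a difference of 0.082, which is within the SD between probe sets. Fused SNAREs are pulled apart by the ATPase NSF with its adaptors. *Nsf* was at 8.10 and 8.38, a difference of 0.26, with 0.34 for its second probe set. The adaptor *Napb*, read by 5 probe sets, was at 7.69 and 8.16 for the strongest, a difference of 0.45, while the others ranged from −0.068 to 0.35.

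The scaffolds of the active zone and the endocytic genes each split in direction. *Pclo*, the giant scaffold piccolo, was at 5.78 and 6.45, a difference of 0.65, with 0.26 for its second probe set. *Bsn*, the related scaffold bassoon, was at 4.93 and 4.32, a difference of −0.63 in the low range where the SD between probe sets was 1.18, and its second probe set was at 1.76 and listed at 0. *Dnm1*, the GTPase that pinches vesicles off the membrane, was at 9.48 and 9.71, a difference of 0.20, and its second probe set of high level gave −0.019. Amphiphysin, *Amph*, which recruits dynamin, was at 7.004 and 6.71, a difference of −0.31 from a single probe set of middle level.

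Genes of particular transmitters were read at low or middle levels. *Gad1*, which makes the inhibitory transmitter GABA, was at 5.23 on the plus-titled array and 6.59 on the minus-titled array, a difference of 1.34, and 0.65% of all genes of middle level differed as far in this direction. Its second probe set was at 2.53 and 2.67, a difference of 0.12. The cholinergic genes *Slc18a3*, the vesicular acetylcholine transporter, and *Slc5a7*, the choline transporter, lay near the floor. *Slc18a3* was at 2.95 and 2.52 and *Slc5a7* at 2.17 and 2.67, differences of −0.45 and 0.48 that are smaller than the SD between probe sets at this level.

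The cytoskeletal genes did not share a direction. The neurofilament triplet, the light, middle and heavy chains that set axon calibre, had slightly lower values on the minus-titled array. *Nefl* was at 10.65 and 10.49, *Nefm* at 10.33 and 10.17 and *Nefh* at 7.46 and 7.26, differences of −0.18, −0.18 and −0.22. Each chain was read by a single probe set, and the SD of 0.11 between probe sets of high level holds no spread between pools. Differences as far in this direction were found for 11.2%, 11.0% and 7.12% of all genes of high level. The other intermediate filaments were on the opposite side. Peripherin, *Prph*, found in neurons with axons outside the brain and among auditory neurons in type II cells, was at 9.16 and 9.45, a difference of 0.27. Its weaker probe sets, all of low level, gave 1.93, 2.10 and −0.18. *Ina*, the internexin of developing and central axons, was at 9.48 and 10.15, and its 3 probe sets of high level differed by 0.65, 0.47 and 0.57.

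All 5 microtubule genes were higher on the minus-titled array, with a median of 0.38. *Tubb3*, the neuronal β-tubulin, was at 8.94 and 9.63, a difference of 0.67 that 1.18% of all genes of high level reached. *Mapt*, the axonal protein tau, was at 9.61 and 10.01, and its 3 probe sets differed by 0.38, 0.63 and 0.70. The stathmins bind free tubulin in growing neurites and were read alike by both of their probe sets. *Stmn2* was at 9.87 and 10.34, with differences of 0.45 and 0.44, and *Stmn3* at 10.78 and 11.14, with differences of 0.33 and 0.31. *Map2*, the dendritic counterpart of tau, was at 5.35 and 5.62, a difference of 0.25 at a middle level, where the SD between probe sets was 0.30.

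The kinesin genes hardly differed between the arrays. *Kif1a*, which hauls vesicle precursors, was at 7.11 and 7.09, a difference of −0.041. *Kif5c*, a neuronal heavy chain of conventional kinesin, was at 6.70 and 6.86, a difference of 0.14. *Kif17*, a motor of dendritic cargo, was at 5.44 and 5.52, a difference of 0.056, with 0.46 for its second probe set. Every one of these 3 lay within the SD of 0.30 for middle levels.

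Genes of neuronal growth and of the cell body were higher on the minus-titled array in 5 of 5 cases, with a median of 0.37. *Elavl3*, an RNA-binding protein of postmitotic neurons, was at 7.57 and 8.36, the farthest of the neuronal genes of high level at 0.76, and its other probe sets gave 0.53 and 1.46. Its relative *Elavl4* was at 8.25 and 8.49, and its 3 probe sets differed by 0.22, 0.088 and −0.0062, so it was near 0 on the weaker pair. *Gap43*, the growth cone protein of extending axons, was at 9.08 and 9.57, a difference of 0.47. *Uchl1*, an abundant neuronal deubiquitinase, was at 9.84 and 10.24, a difference of 0.37. *Sncg*, a synuclein of peripheral sensory neurons, was at 8.99 and 9.23, a difference of 0.22.

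Secretory granule proteins, which load dense-core granules in neurons and endocrine cells alike, went both ways at single probe sets. *Chgb* was at 7.50 and 8.20, a difference of 0.68, and *Chga* at 6.55 and 6.94, a difference of 0.37. *Scg2* was at 7.82 and 7.43, a difference of −0.41 that 1.13% of all genes of high level reached in this direction. Without the secretory granule genes, 30 of 40 were higher and the median was 0.25.

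**Figure D3:**
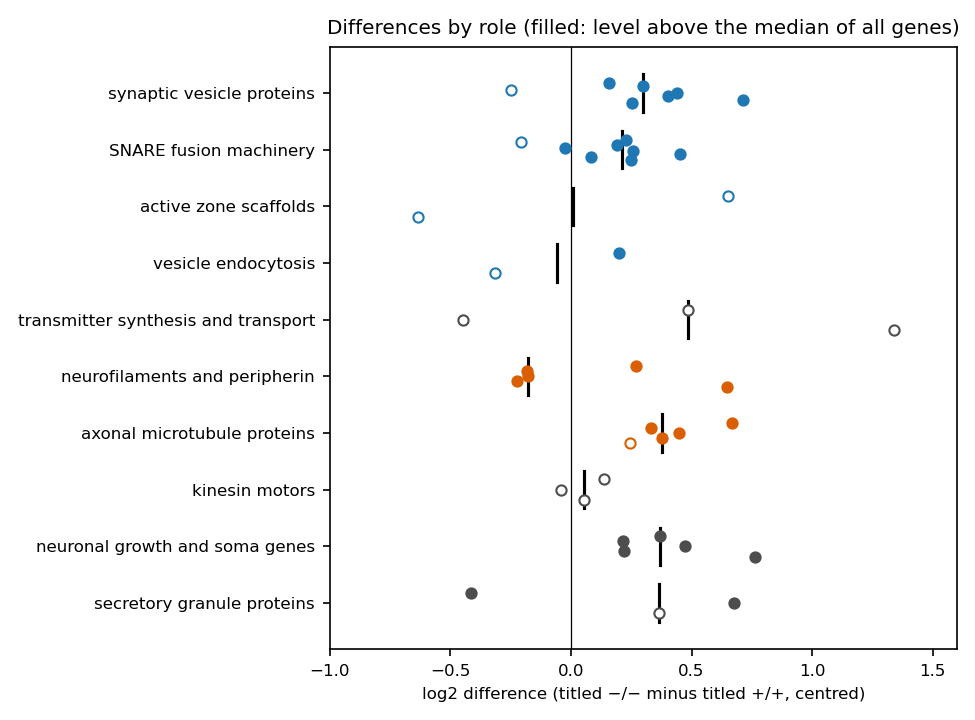
Centred log2 difference (titled −/− minus titled +/+) of the 43 genes by role, with 1 point per gene, filled where the mean level was above 7.10, and a black bar at the median of the role. All points of the microtubule and of the growth and soma genes lie above 0, while *Nefl*, *Nefm* and *Nefh* lie at −0.18 to −0.22 and *Ina* at 0.65.

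The question whether the peripheral cytoskeleton differs from the general presynaptic genes was read from list medians. Both lists were chosen with earlier results of these data known. The peripheral list holds *Nefl*, *Nefm*, *Nefh* and *Prph*, and 3 of the 4 were lower on the minus-titled array, with a median difference of −0.18. The presynaptic list holds the vesicle, SNARE, active zone and endocytic genes, and 14 of 19 measured were higher, with a median of 0.23. The first median was thus below the second by 0.41. This rests on the neurofilament triplet, since *Prph* was on the presynaptic side, and it does not extend to the cytoskeleton as a whole. With *Ina*, *Tubb3*, *Map2*, *Mapt*, *Stmn2* and *Stmn3* added, the 10 cytoskeletal genes had a median of 0.30, above that of the presynaptic list by 0.070. With the mean over the probe sets of each gene in place of the strongest, the gap of the peripheral list was −0.27. The median level was 9.77 for the peripheral list and 7.77 for the presynaptic one. Levels of different probe sets depend on how well each binds its transcript, so this gap is not a ratio of transcripts. All 4 peripheral genes and 14 of the 19 presynaptic genes were at a high level.

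Repeat readings by other probe sets were available for 26 of the 43 genes. In 17 of them all probe sets had the same sign, and in 9 they did not. Taking the second strongest probe set alone, 18 of 26 were higher on the minus-titled array, with a median of 0.26, while 49.5% of the second probe sets of all genes were higher. Of the 18 second probe sets at a level of 5 or more, 15 had the sign of the strongest one and 14 were higher. The exceptions were *Syt4*, *Stx1a* and *Dnm1*, whose second probe sets gave −0.040, −0.033 and −0.019. How often the probe sets of all genes share a sign was not counted, so these agreement counts have no background beside them.

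**Figure D4:**
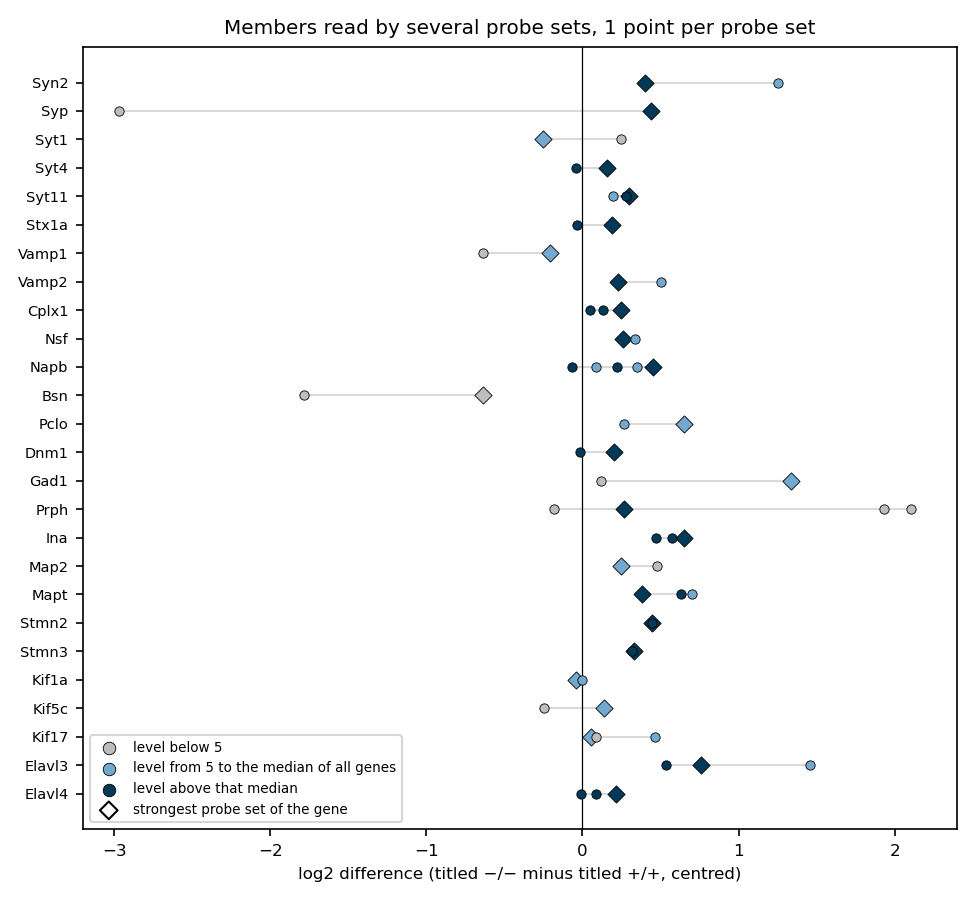
Centred log2 difference (titled −/− minus titled +/+) of each probe set of the 26 genes read by several, with diamonds for the strongest probe set and the shade showing the range of its mean level. The pair for *Stmn2* lies at 0.45 and 0.44, and the points farthest from 0 on either side, *Syp* at −2.97 and *Prph* at 2.10, are of low level.

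Other genes of the same pathways, in lists that hold none of the 43, were also higher on the minus-titled array more often than not. Of all measured genes, 50.5% were higher. Of 34 further presynaptic genes measured, 25 were higher and 9 lower, with a median of 0.11, and 11 were at low levels and 13 at a high level. The 3 past 1 log2 unit were all at low levels. *Doc2b*, a calcium sensor of release, was at 3.68 and 5.63, *Slc32a1*, the vesicular transporter of GABA and glycine, at 3.13 and 5.04, and *Cplx3*, the complexin of ribbon synapses, at 2.64 and 0.62. *Gad2*, the second enzyme of GABA synthesis and chosen here after its values were seen, was at 5.21 and 4.60, on the other side from *Gad1* and *Slc32a1*. Of 26 further genes of the axonal cytoskeleton, 18 were higher and 8 lower, with a median of 0.20, and *Stmn4*, another stathmin, was above 1 at 7.02 and 8.05. Of the 8, *Kif21b*, a kinesin listed at 0 on both arrays, and its relative *Kif21a* count as lower through the centring alone. Of 5 further granule genes, 4 were higher, with a median of 0.27.

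Markers of spiral ganglion neurons were mostly on the other side of 0, by a small amount at the median. Of 10 measured, 3 were higher and 7 lower, beside 49.5% of all genes lower. The median of −0.096 is smaller in size than the SD of 0.11 between probe sets of high level. That SD is for single differences and does not measure the spread of a list median. Of the 10, only 5 were at a high level and 2 were at low levels. *Tubb3* itself is among the 3, with *Neurod1* and *Calb2*, the latter at 5.17 and 5.48. The summed level of the list on the log2 scale was 11.02 on the plus-titled array and 11.15 on the minus-titled array, and without *Tubb3* it was 10.63 and 10.53. *Isl1*, a transcription factor of these neurons, was at 9.13 and 9.05, and *Ntrk2*, their neurotrophin receptor, at 8.95 and 8.88. *Gata3*, a transcription factor of the ganglion and of other cochlear cells, was at 7.76 and 7.31. These 3, named after their values were seen, were thus present on both arrays with differences of −0.096, −0.095 and −0.48. *Neurod1*, a transcription factor of this and other neuronal lineages, was at 4.58 and 6.49, a difference of 1.88, and *Neurog1*, an early one, was listed at 0 on both arrays and counts as lower through the centring alone. Of 8 hair cell genes, 3 were higher and 5 lower, with a median of −0.11, summed levels of 9.35 and 9.28 and none listed at 0. Of 7 Schwann cell genes, 1 was higher and 6 lower, with a median of −0.22 and summed levels of 12.31 and 12.18.

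Genes of other neural tissue and of muscle were mostly higher on the minus-titled array, as were most of the neuronal genes. Those of the pituitary, mostly at low levels, were split. Of all measured genes, 50.5% were higher, with 50.3% of those at low and 54% of those at middle levels. Of 9 hindbrain genes, 8 were higher, with a median of 0.45 and summed levels of 9.75 and 10.64. None was listed at 0, but 5 of the 9 were at low levels and only 1 at a high level. The strongest gene of this list, *Zic1*, was at 9.33 and 10.33, and *Lmx1b*, the lower one, at 3.26 and 2.42, both named after their values were seen. Of 10 genes of astrocytes and oligodendrocytes, 8 were higher, with a median of 0.26 and summed levels of 11.01 and 11.33, and 5 were at low levels. *Olig1* alone of these was past 1 log2 unit, at 6.22 and 7.54, *Slc1a2* was listed at 0 on both arrays and counts as lower through the centring, and *Mlc1* and *Nkx2-2* were listed at 0 on the plus-titled array. All 5 genes of motor and autonomic neurons were higher, with a median of 0.92 and summed levels of 7.51 and 8.41. *Mnx1* of motor neurons was at 0.059 and 1.18, while the noradrenergic genes *Phox2a*, *Th* and *Dbh* differed by 0.92, 0.85 and 0.95 at middle levels. *Hand2* was at 3.36 and 3.41, a difference of only 0.028, at a low level like *Mnx1*. All but *Mnx1* were named after their values were seen.

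Of 7 pituitary genes, 4 were higher, all above 1, and 3 lower, 1 of them below −1, beside 50.5% of all genes higher, with 5 of the 7 at low levels, a median of 1.46 and summed levels of 8.16 and 9.85. *Gh* and *Pomc*, which were not at low levels, differed by 1.87 and 1.46. The 3 lower genes were all at low levels, among them *Prl* at 2.65 and 0.96, a difference of −1.71. At low levels too, *Tshb* differed by 1.83, and *Cga* was listed at 0 on the plus-titled array and was at 2.10 on the other. All 10 genes of skeletal muscle were higher, with a median of 0.90 and summed levels of 13.88 and 14.60, and 5 were above 1, those of highest level among them being *Myh3* at 1.05, *Casq2* at 1.24, *Tnnc1* at 1.29 and *Tnni1* at 1.20. How much of the difference of the neuronal genes came with cells of these kinds was not tested.

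**Figure D5:**
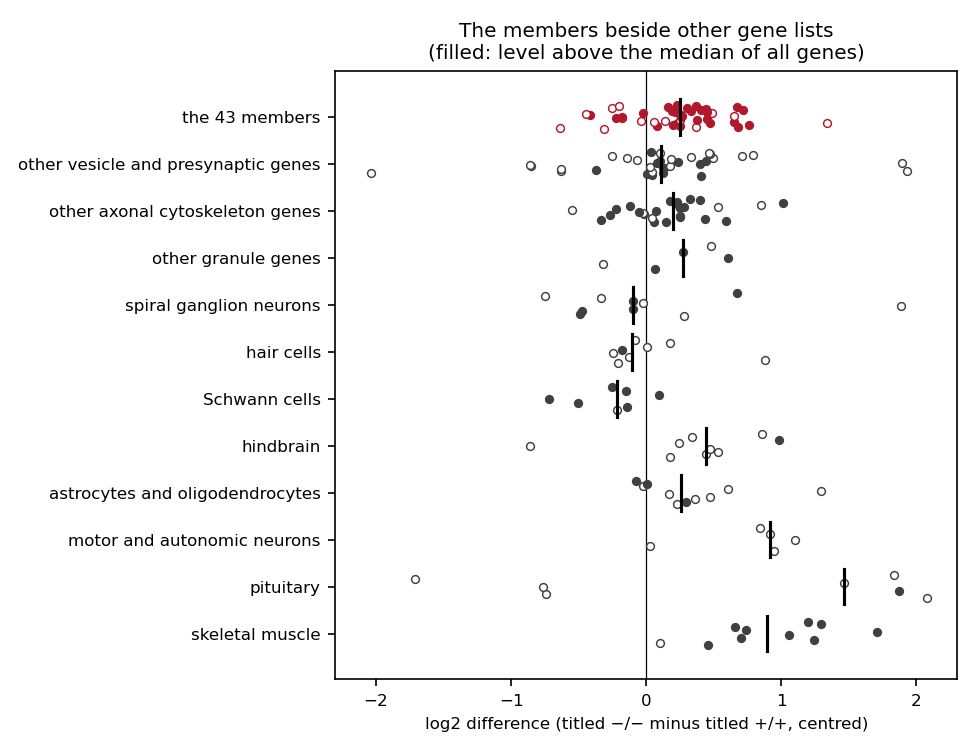
Centred log2 difference (titled −/− minus titled +/+) of the 43 neuronal genes (red) beside 11 other gene lists (dark grey), with 1 point per gene, filled where the mean level was above 7.10, and a black bar at the list median. The medians run from −0.22 for Schwann cells to 1.46 for the pituitary, with 0.25 for the neuronal genes and −0.096 for spiral ganglion neurons.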

How the data were processed

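Biotin-labelled cRNA from pooled E18.5 cochleae was hybridised to Affymetrix MOE430A arrays by the authors, who used MAS5.0 and RMA at first and then estimated levels by PUMA's multi-mgMOS, and which of these gave the deposited table is unstated. Per probe set, the deposited table holds a log2 level from 0 to 13.64, with base 2 inferred from this range and the scaling between arrays unstated. Of 22690 probe sets, 64 controls were left out, and of the rest 20380 name 1 gene symbol, 691 several and 1555 none. Of those with 1 symbol, 20351 matched RefSeq genes of GRCm38.p6 by identifier. Differences were centred on their median, and 12393 genes were measured, each by its strongest probe set on average. Columns were grouped by title, 1 per title, so no test was made, and counts and medians stand beside those over all measured genes. High level means above the gene median of 7.10, and smaller size limits, 0.25 and 0.5, were read there. All 45 genes are named, in order of role. In other lists, genes past 1 log2 unit are named, at most 4 by level where more pass, unless stated. The genes, roles, lists and limits were chosen with earlier results of these data known, and the motifs and the promoters shown after the values were seen. Alternatives were no centring, quantile normalization, loess with a span of 0.3, values raised to the 25th percentile, the mean over probe sets, omission of _x_at and _s_at probe sets, genes of high level only, other size limits and the whole cytoskeleton list. The second probe set by level and the omission of secretory granule genes were added after the data were seen. Steps were tested on simulated data. The software was pandas 2.3.3, numpy 2.4.6, statsmodels 0.14.6, scipy 1.17.1 and matplotlib 3.10.9 under Python 3.11.15.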

Additional observations from a re-analysis of the deposited data

How the results depend on the processing

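Without centring, with quantile normalization and with loess, 32 of 43 neuronal genes were higher on the minus-titled array, beside 54.5%, 48.1% and 49.7% of all genes, and the median difference was 0.27, 0.24 and 0.25. With _x_at and _s_at probe sets left out, 31 were higher beside 50.3% of all genes, and *Stx1a* moved from 0.19 to −0.033. With the mean over probe sets the count was 31 beside 50.4% of all genes, with a floor at the 25th percentile 31 beside 45.4%, and with the second probe set 28 beside 50.1%. Genes raised to the floor on both arrays have a difference of 0 there and are not counted as higher. Genes with a single probe set, 17 of the 43, keep it in the last count. With the whole cytoskeleton list the gap to the presynaptic genes turned to 0.070, because it adds 6 genes that were all higher. For the peripheral list the gap was −0.27 with the mean over probe sets. *Syp* turned to −1.27 with that mean and to −2.97 with its second probe set, of low level. Under the mean over probe sets, 2 genes were below −1 and 2 of high level below −0.25. Under the second probe set, 2 genes were above 1, 2 below −1 and 2 of high level below −0.25. At a limit of 0.5 in place of 1, 7 genes were above and 1 below. In place of 0.25, 5 genes of high level were above and 0 below, beside 1.9% and 0.646% of all genes of high level. The shares of all genes past the limits were not counted under the mean, under the second probe set or for 0.5 at all levels. Those counts thus have no background beside them. Without the secretory granule genes 0 were below −0.25. No paired analysis was possible because each title has 1 column of values. Signal over background limits all values below a level of 5, where the SD between probe sets was 1.18, and no replicate gives an error for any difference. The contradiction of titles and source names leaves the direction by genotype unsettled.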
